A study of Mus musculus with 15 samples.

Results

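The nuclear-encoded subunits of oxidative phosphorylation, with the assembly factors whose symbols share their prefixes, were followed in mouse lung after 2 ways of giving rod-like carbon nanotubes (rCNT), which are stiff fibre-shaped particles. Members were the genes with a symbol that starts with Ndufa, Ndufb, Ndufc, Ndufs, Ndufv, Uqcr, Cox4 to Cox8, Atp5 or Sdha to Sdhd. The array held 97 such genes. Of these, 95 were kept because 3 or more samples of some group had a probe of the gene well above background, among 25251 genes or unnamed transcripts tested. Cox7b2 and Cox8c were not well above background in any sample and were left out. The 95 members held 36 genes of complex I, 4 of complex II, 8 of complex III, 15 of complex IV, 17 of complex V and 12 assembly factors. The remaining 3, Cox6a2, Cox7a1 and Cox8b, are the isoforms of complex IV subunits that heart and skeletal muscle use, and they are described apart from the other 92.

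All mice were female C57BL/6 animals of 7 to 8 weeks, and whole lungs were collected 24 h after exposure ended. The groups were 4 samples with rCNT aspirated from the back of the throat (on 4 days, 10 µg each day in 50 µl of PBS, a phosphate-buffered saline), 4 samples with the saline alone given in the same way, 3 samples with rCNT breathed as an aerosol (6.2 to 8.2 mg per m3, 4 h per day on 4 days) and 4 samples from untreated mice. Each sample is 1 colour channel of a 2-colour Agilent array, and values are log2 intensities, quantile-normalised over the 15 samples. A single slide held the 8 aspiration samples, and 2 others held the 7 from the inhalation study. These 7 were split unevenly: slide 2 held inhaled rCNT replicate 1 and untreated replicates 1, 2 and 3. Slide 3 held inhaled rCNT replicates 2 and 3 and untreated replicate 4. For untreated replicate 1 the title speaks of PBS aspiration, unlike its other labels, which say untreated, and names given to the inhalation arrays contain the word pool, so a sample may stand for more than 1 mouse and p-values measure the spread between these samples.

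Oxidative phosphorylation takes place at the inner mitochondrial membrane. Complexes I and II pass electrons from NADH and succinate to ubiquinone, complex III hands them to cytochrome c, complex IV passes them to oxygen, and complex V, the ATP synthase, uses the proton gradient built by complexes I, III and IV. Most subunits are made from nuclear genes, many of whose promoters are known to be bound by NRF1 and by GABPA, an ETS factor also called NRF2. In the lung, type 2 cells, ciliated cells and macrophages are rich in mitochondria.

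RefSeq promoters (GRCm38.p6, from 250 bases before to 50 bases after the start of transcription) were found for 77 of the 92 members. The 7 letters GCGCATG of NRF1 stood on either strand in 15 of these windows (19.5%), against 1091 of all 27025 promoter windows (4.04%). The full palindrome, in which these letters overlap their own reverse complement CATGCGC by CATG, stood in 7 (9.09%) against 0.977% of all windows. The ETS letters CCGGAAG stood in 21 (27.3%) against 9.12%. The shorter NRF1 motif was in 8 of 40 windows of members that rose after aspiration, in none of 5 of members that fell, and in 7 of 31 windows of members that fell after inhalation against 2 of 19 of members that rose. Of the 4 windows printed here up to the base before the start, in the direction of transcription, those of Cox6a1 and Ndufa11 belong to members with opposite changes after the 2 routes, that of Sdhb to a member that fell after inhalation and that of Atp5l to the member with the largest rise after inhalation. Capitals mark the searched motifs (where the NRF1 letters overlap their reverse complement, the first of them), and CATGCGC and CTTCCGG are the reverse complements of the NRF1 and ETS letters.
Cox6a1, chr5:115348959-115349208, reverse strand: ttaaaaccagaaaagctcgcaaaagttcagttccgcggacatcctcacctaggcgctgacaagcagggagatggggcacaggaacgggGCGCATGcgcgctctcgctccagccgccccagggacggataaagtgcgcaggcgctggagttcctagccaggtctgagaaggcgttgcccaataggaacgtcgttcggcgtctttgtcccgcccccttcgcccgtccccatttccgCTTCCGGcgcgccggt
Ndufa11, chr17:56717512-56717761, forward strand: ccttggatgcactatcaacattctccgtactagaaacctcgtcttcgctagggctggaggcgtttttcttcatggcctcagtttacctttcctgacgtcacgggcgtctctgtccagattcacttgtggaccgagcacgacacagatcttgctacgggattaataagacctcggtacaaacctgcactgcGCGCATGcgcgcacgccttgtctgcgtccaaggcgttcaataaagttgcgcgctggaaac
Sdhb, chr4:140961021-140961270, forward strand: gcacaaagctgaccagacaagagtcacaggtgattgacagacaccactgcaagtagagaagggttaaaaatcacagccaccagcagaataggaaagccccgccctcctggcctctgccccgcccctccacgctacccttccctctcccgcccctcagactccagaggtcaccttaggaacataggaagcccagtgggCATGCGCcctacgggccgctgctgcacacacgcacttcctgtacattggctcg
Atp5l, chr9:44920743-44920992, reverse strand: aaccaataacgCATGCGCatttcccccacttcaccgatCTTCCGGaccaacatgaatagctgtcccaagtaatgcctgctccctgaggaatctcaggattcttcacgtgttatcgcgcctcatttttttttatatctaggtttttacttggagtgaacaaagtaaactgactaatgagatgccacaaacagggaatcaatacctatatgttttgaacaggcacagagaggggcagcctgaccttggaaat

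Markers of lung were present: all 10 that were checked, among them the surfactant gene Sftpc and the club cell gene Scgb1a1, were well above background in all 15 samples. Across all features tested, samples of the same group had correlations of 0.994 to 0.998. Untreated samples stood apart in nuclear noncoding RNA: the summed intensity of 7 such genes was 116000 to 129100 units in inhaled rCNT lungs against 8056 to 9934 in untreated lungs, with 60360 to 65670 in aspirated rCNT lungs and 76490 to 100800 in PBS lungs. This gap runs along the inhalation comparison and its part in the results was not tested. Inhaled rCNT minus PBS is given as a further comparison, in which slide, route and kind of control cannot be told apart. In whole tissue, fewer cells of a type and less RNA per cell cannot be told apart either.

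The first comparison asked how aspirated rCNT changed the members relative to aspirated PBS. Of the 92 members 43 rose (46.7%) and 7 fell (7.61%) in limma's test at an adjusted p below 0.05, while 20.6% of all features rose and 26.5% fell (47.2% in either direction). The members' median log2 fold change was 0.14, against -0.04 over all features. Of the 92, 1 differed by more than 1.5-fold and none by more than 2-fold. The mean log2 intensity over the 92 members was 13.12 ± 0.016 in aspirated rCNT lungs and 12.99 ± 0.046 in PBS lungs (SD, n = 4 each), and the 4 exposed samples (13.11 to 13.14) all lay above the 4 PBS samples (12.94 to 13.05). The count that fell was 4 when aspirated rCNT replicate 1 or 4, or PBS replicate 1 or 2, was left out.

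**Figure D1:**
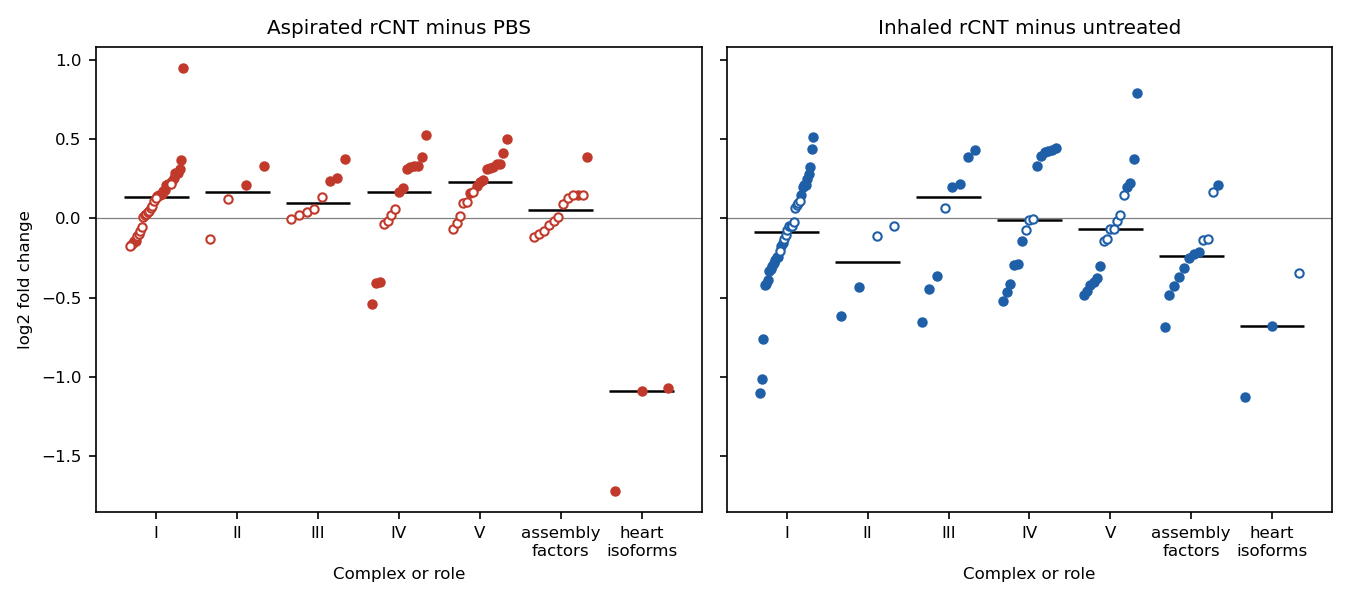
Log2 fold change (vertical axis) of every member by complex or role, for aspirated rCNT minus PBS (left, red) and inhaled rCNT minus untreated (right, blue). Each point is 1 member, filled where it passed the test, and the bar is the median of the class. After aspiration 43 of 92 members rose and 7 fell, and the heart isoforms lay lowest. After inhalation 24 rose and 40 fell at the scaling drawn, and with each channel centred on its median none rose and 73 fell.

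Complex I rose in 17 of 36 members (47.2%) and fell in 4 (11.1%) after aspiration, with a median of 0.13. Of all features 20.6% rose and 26.5% fell. Of the 7 core subunits of complex I, which carry the cofactors, 2 rose and 2 fell (28.6% each), near the shares of all features. Of the 29 supernumerary subunits 15 rose (51.7%) and 2 fell (6.9%). Ndufab1, the mitochondrial acyl carrier protein that sits in complex I and also serves lipoic acid and iron-sulfur cluster synthesis, had 9.41, 9.35, 9.61 and 9.44 in aspirated rCNT lungs, against 8.41, 8.71, 8.41 and 8.48 in PBS lungs. The groups did not overlap, and the rise of 0.95 ± 0.08 (adjusted p = 9.13e-08) was the largest of the 92 members. Here and below, groups that do not overlap were not counted over all features, so separation only describes the gene named. Ndufa11, a supernumerary subunit of the membrane arm, had 11.93, 11.88, 11.95 and 11.93 in aspirated rCNT lungs, against 11.44, 11.72, 11.55 and 11.50 in PBS lungs (0.37 ± 0.06). The flavin-binding core subunit gene Ndufv1 had 13.88, 14.00, 13.88 and 13.93 in aspirated rCNT lungs, against 14.07, 14.13, 14.12 and 14.03 in PBS lungs, a fall of 0.17 (adjusted p = 0.0163). Its groups did not overlap, but the call ended without PBS replicate 2 (adjusted p = 0.0561) and with 3 other scalings. Ndufs7, another core subunit with an iron-sulfur cluster, was at -0.16 with overlapping groups, and its call ended when any of 5 samples was left out.

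Complex V rose in 11 of 17 members (64.7%) and fell in none, against 20.6% and 26.5% of all features. Atp5pb, the b subunit of the peripheral stalk, had 12.96, 13.00, 13.04 and 13.20 in aspirated rCNT lungs, against 12.54, 12.50, 12.53 and 12.61 in PBS lungs (0.50 ± 0.06, adjusted p = 1.02e-05). Atp5o, the subunit that joins the stalk to the catalytic head, had 12.98, 13.02, 13.04 and 13.10 in aspirated rCNT lungs, against 12.60, 12.70, 12.62 and 12.55 in PBS lungs (0.42 ± 0.06). Neither gene's groups overlapped. The catalytic head was uneven: the γ subunit gene Atp5c1 rose by 0.32 ± 0.05, the β subunit gene Atp5b by 0.21 ± 0.07 with overlapping groups, and the α subunit gene Atp5a1 was at -0.03 ± 0.07 (adjusted p = 0.753). The call for Atp5b ended when any of 6 aspiration samples was left out (adjusted p 0.0505 to 0.127). The 3 genes for subunit c, which forms the ring in the membrane, were at 0.32 (Atp5g1), 0.11 (Atp5g2) and 0.23 (Atp5g3), and the middle value did not pass (adjusted p = 0.127).

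Complex IV was the most divided, with 8 of 15 members up (53.3%) and 3 down (20%), against 20.6% and 26.5% of all features. Cox5a, a nuclear subunit of the matrix side, had 14.68, 14.73, 14.69 and 14.82 in aspirated rCNT lungs, against 14.25, 14.19, 14.22 and 14.16 in PBS lungs (0.53 ± 0.05, adjusted p = 9.77e-07). Its partner Cox5b rose by 0.39 ± 0.07, and Cox7a2 and Cox7b, small membrane subunits, by 0.33 each. The 3 members that fell were Cox4i2, Ndufa4l2 and Cox7a2l, and for each the groups did not overlap. The share of all features with separate groups was not counted, and 47.2% of all features passed the test. Cox4i2, the isoform of subunit 4 that is enriched in lung and takes part in oxygen sensing, had 9.95, 9.92, 9.92 and 10.00 in aspirated rCNT lungs, against 10.50, 10.30, 10.26 and 10.34 in PBS lungs (-0.40 ± 0.07, adjusted p = 0.000179). Its ubiquitous counterpart Cox4i1 was at 0.06 ± 0.05 (adjusted p = 0.367). Ndufa4l2, the hypoxia-inducible relative of the complex IV subunit Ndufa4, had 10.98, 10.86, 10.97 and 10.93 in aspirated rCNT lungs, against 11.60, 11.49, 11.34 and 11.49 in PBS lungs (-0.54 ± 0.09), while Ndufa4 itself was at -0.02 ± 0.06 (adjusted p = 0.845). Cox7a2l, which tethers complex III to complex IV in supercomplexes and is known to carry a short form in C57BL/6 mice, had 14.70, 14.87, 14.70 and 14.72 in aspirated rCNT lungs, against 15.29, 15.05, 15.33 and 14.94 in PBS lungs (-0.41 ± 0.08). Its 2 other kept probes were at -0.42 and -0.29.

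Cox4i2 and Ndufa4l2 are also known as genes of pericytes, the contractile cells around capillaries. Of 9 further pericyte genes, a list chosen after values had been seen and given as values only, 7 were negative after aspiration (median -0.54) and 8 after inhalation (median -0.48). Relative to PBS lungs, 5 of the 9 were negative in inhaled rCNT lungs (median -0.05). The list ran from -0.85 to 0.42 after aspiration and from -0.61 to 1.10 after inhalation. Of all 25251 features 10840 were positive after aspiration, 12105 after inhalation and 12454 in inhaled rCNT relative to PBS lungs. Of 10 endothelial markers none rose and 9 fell after aspiration, and all 10 fell after inhalation. The part of these cells in the falls of Cox4i2 and Ndufa4l2 was not tested.

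After aspiration 2 of the 4 members of complex II rose and none fell. In this complex, which is also succinate dehydrogenase of the citrate cycle, the membrane anchor genes Sdhc and Sdhd rose by 0.21 ± 0.06 and 0.33 ± 0.05, the iron-sulfur subunit gene Sdhb was at 0.12 (adjusted p = 0.132) and the flavoprotein gene Sdha at -0.13 (adjusted p = 0.0545). Another kept probe of Sdhb was at 0.24. With scaling to the 75th percentile Sdhb passed as higher (0.21, adjusted p = 0.0327), and with median centring or loess and Aquantile it did not. The call for Sdhc ended without aspirated rCNT replicate 1 (adjusted p = 0.0518), and Sdha passed as lower without PBS replicate 2 or untreated replicate 4. In complex III 3 of 8 members rose and none fell: Uqcrq, a small subunit at the ubiquinone site, by 0.38 ± 0.07, the core protein gene Uqcrc1 by 0.26 ± 0.08 and the Rieske iron-sulfur protein gene Uqcrfs1 by 0.24 ± 0.06. Of 12 assembly factors 2 rose (16.7%) and none fell, against 20.6% and 26.5% of all features. Ndufaf3, which acts early in complex I assembly, rose by 0.39 ± 0.07, and Sdhaf2, which attaches the flavin to Sdha, was at 0.15 with an adjusted p of 0.0497 that passed the threshold with 2 of the 15 samples left out in turn and not with the other 13.

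**Figure D2:**
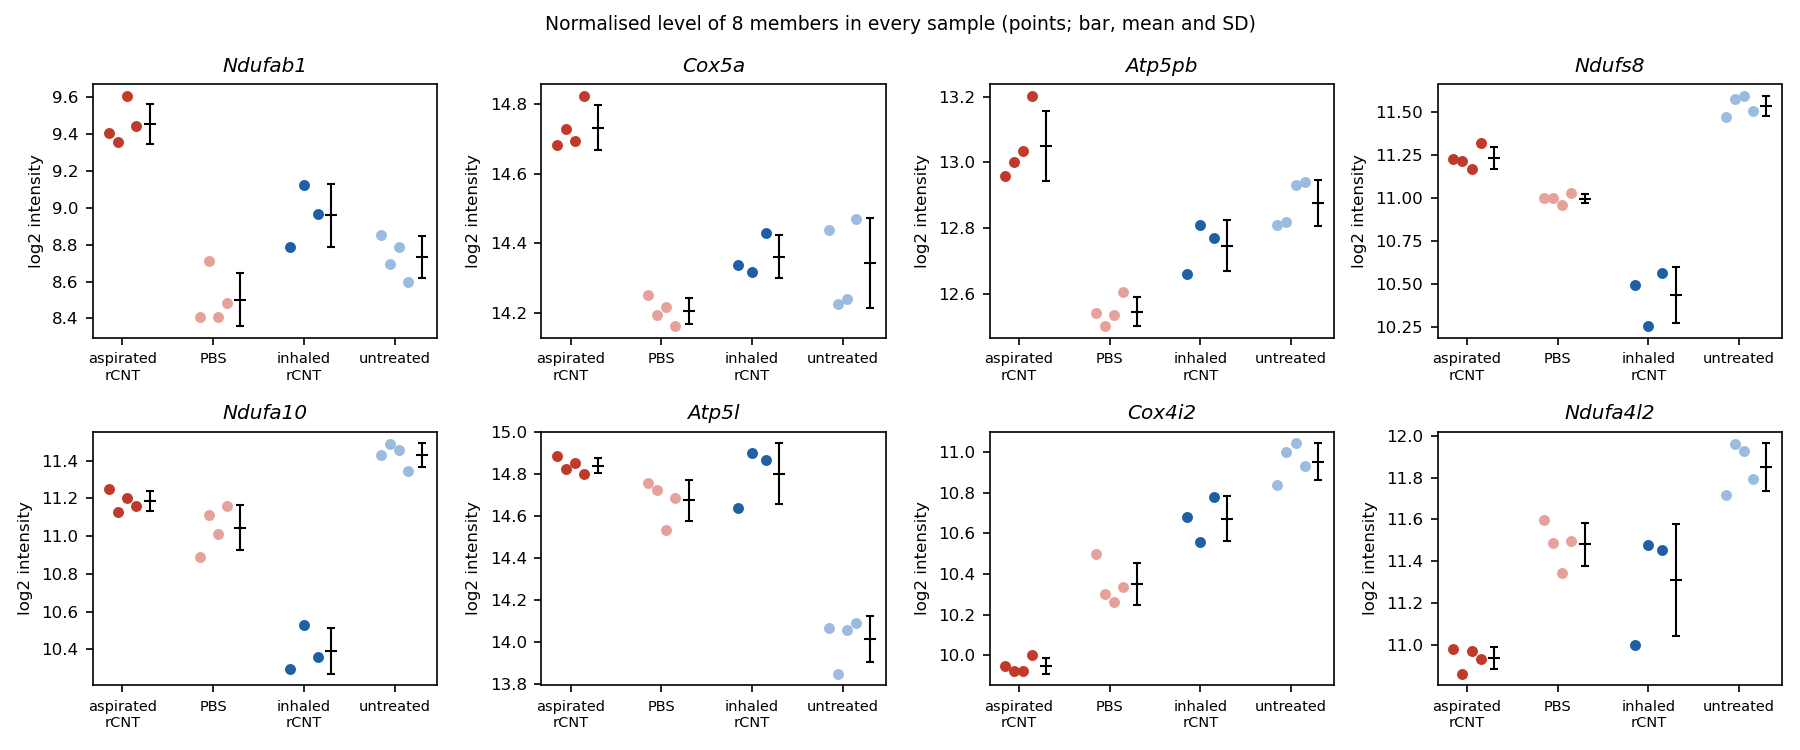
Log2 intensity (vertical axes) of 8 members in each sample, by group (horizontal axis: aspirated rCNT, PBS, inhaled rCNT, untreated). Points are samples, and the bar to their right is the mean with its SD. Ndufab1, Cox5a and Atp5pb lay above PBS in all aspirated rCNT samples, Ndufs8 and Ndufa10 were lowest in inhaled rCNT samples, Atp5l was lowest in untreated samples, and Cox4i2 and Ndufa4l2 were lower in the exposed samples of each route than in the control samples of the same route.

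The 3 heart isoforms moved most of all members after aspiration, and all downwards. Cox8b had 8.80, 8.77, 9.32 and 8.92 in aspirated rCNT lungs, against 10.71, 10.96, 10.69 and 10.32 in PBS lungs (-1.72 ± 0.15, adjusted p = 1.95e-07). Cox7a1 had 9.55, 9.74, 10.07 and 9.90 in aspirated rCNT lungs, against 11.07, 11.13, 10.94 and 10.48 in PBS lungs (-1.09 ± 0.16). Cox6a2 had 11.25, 11.41, 11.74 and 11.24 in aspirated rCNT lungs, against 12.61, 12.55, 12.47 and 12.30 in PBS lungs (-1.07 ± 0.14). The exposed and PBS groups did not overlap, and aspirated rCNT replicate 3 was the highest exposed sample for all 3 genes. Their ubiquitous counterparts Cox6a1, Cox7a2 and Cox8a rose by 0.20, 0.33 and 0.16 in the same samples. The calls for Cox6a1 and Cox8a each ended when any of 4 aspiration samples was left out, with adjusted p up to 0.106 and 0.114.

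Genes of heart muscle moved with these isoforms. Of 20 cardiac markers 18 fell after aspiration and none rose (median -1.47), and their summed intensity was 37970 to 53660 units in aspirated rCNT lungs against 93990 to 115400 in PBS lungs. Myh6, the myosin heavy chain of the atria and the adult mouse ventricle, had 13.28, 13.39, 14.21 and 13.13 in aspirated rCNT lungs, against 15.36, 15.44, 15.49 and 15.24 in PBS lungs, again with replicate 3 as the highest exposed sample. Of 6 skeletal muscle markers that were measured 2 rose and 2 fell. Of 7 fat markers 1 rose and 4 fell, with values from -1.84 to 1.31. Pulmonary veins of mice are known to carry cardiac muscle, and a lung can be taken with pieces of atrium. The part of these tissues in the isoform values was not tested.

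**Figure D3:**
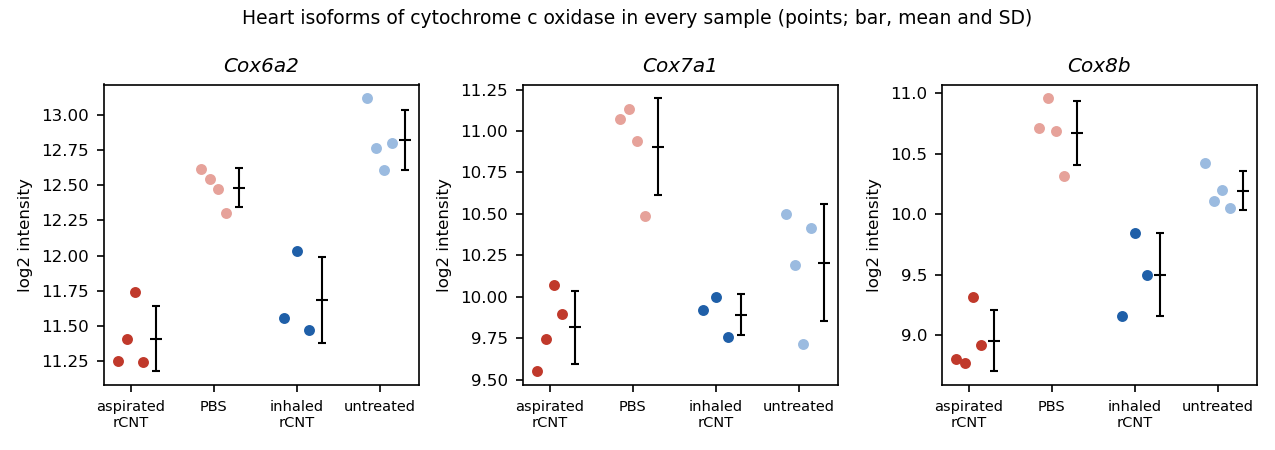
Log2 intensity (vertical axes) of Cox6a2, Cox7a1 and Cox8b in each sample by group (horizontal axis). Points are samples, and the bar is the mean with its SD. All aspirated rCNT samples lay below all PBS samples for the 3 genes, and inhaled rCNT samples lay below untreated samples for Cox6a2 and Cox8b, while 1 untreated sample of Cox7a1 (9.72) lay below all inhaled rCNT samples.

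After inhalation the isoforms were lower too, less evenly. Cox6a2 had 11.56, 12.04 and 11.47 in inhaled rCNT lungs, against 13.12, 12.76, 12.61 and 12.80 in untreated lungs (-1.13 ± 0.15, adjusted p = 9.56e-06). Cox8b had 9.16, 9.84 and 9.50 in inhaled rCNT lungs, against 10.43, 10.11, 10.20 and 10.05 in untreated lungs (-0.68 ± 0.17, and -0.40 with an adjusted p of 0.23 within slide 3). Cox7a1 had 9.92, 10.00 and 9.76 in inhaled rCNT lungs, against 10.50, 10.19, 9.72 and 10.42 in untreated lungs, with groups that overlapped and a difference of -0.34 ± 0.17 that did not pass (adjusted p = 0.0942). Without untreated replicate 3 it was -0.48 (adjusted p = 0.0144), and without inhaled rCNT replicate 2 it was -0.49 (adjusted p = 0.0443). It was smaller without untreated replicate 1 (-0.26, adjusted p = 0.244) and without inhaled rCNT replicate 3 (-0.25, adjusted p = 0.292). Untreated replicate 3 also had the lowest Myh6 of its group (11.84, against 13.18 to 14.15 in the other 3), and inhaled rCNT replicate 2 the highest of its group (13.85, against 12.68 and 12.95). The cardiac list as a whole fell in 7 of 20 members after inhalation, and its summed intensity overlapped between inhaled rCNT lungs (25220 to 43490) and untreated lungs (25680 to 64380). PBS lungs lay above untreated lungs in 15 of 20 cardiac markers (median 1.08), in Cox7a1 (0.70 ± 0.16) and in Cox8b (0.47 ± 0.15), and below them in Cox6a2 (-0.34 ± 0.14). Relative to PBS lungs, inhaled rCNT lungs were at -0.79 in Cox6a2, -1.04 in Cox7a1 and -1.15 in Cox8b, and all 3 passed.

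The second comparison asked how inhaled rCNT changed the members relative to untreated lungs. Of the 92 members 24 rose (26.1%) and 40 fell (43.5%), while 28.4% of all features rose and 32.5% fell (60.8% in either direction). Their median was -0.12, against -0.02 over all features. These counts turned on how the arrays were scaled: with each channel centred on its median none rose and 73 fell, with scaling to the 75th percentile 4 rose and 65 fell, and with loess and Aquantile normalisation 29 rose and 36 fell. The medians of all features under these scalings were -0.15, 0.05 and 0.01, and those of the members -0.53, -0.33 and -0.0036. The authors' deposited table, used as the input values in the same model, gave 22 and 40. After aspiration the same 4 inputs gave 38 to 49 members that rose and 3 or 4 that fell.

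**Figure D4:**
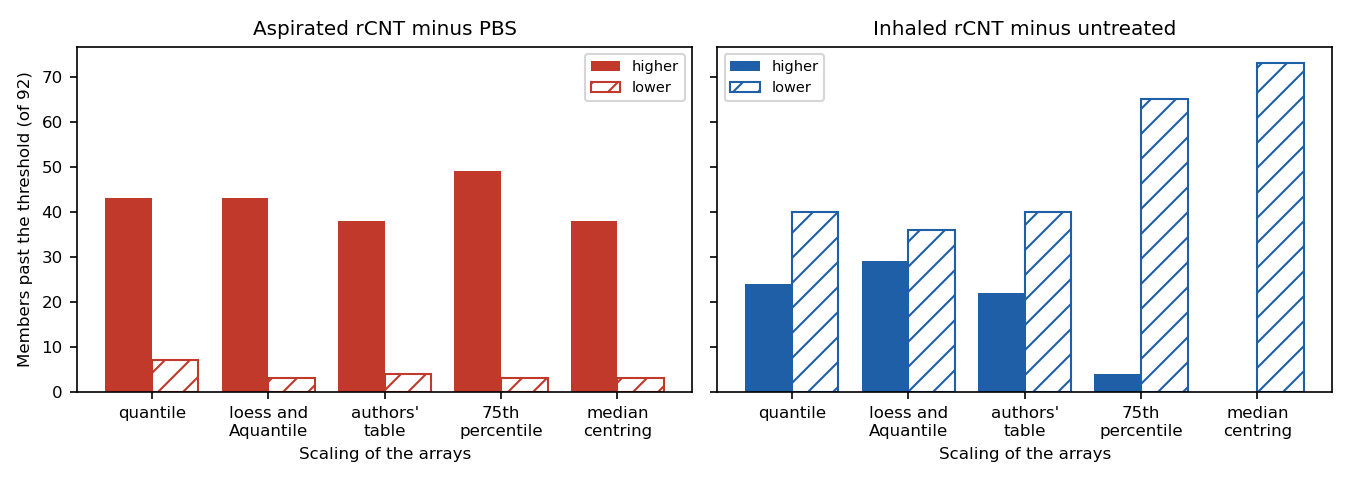
Number of the 92 members past the threshold (vertical axis, from 0) under 5 scalings of the arrays (horizontal axis), for aspirated rCNT minus PBS (left, red) and inhaled rCNT minus untreated (right, blue). Filled bars are members that were higher and hatched bars members that were lower. Aspiration gave mostly higher members at each scaling, whereas inhalation gave 24 higher and 40 lower with quantile scaling and 0 higher and 73 lower with median centring.

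In complex I 9 of 36 members rose (25.0%) and 15 fell (41.7%) after inhalation at quantile scaling, against 28.4% and 32.5% of all features. Ndufs8, a core subunit that carries iron-sulfur clusters, had 10.50, 10.26 and 10.57 in inhaled rCNT lungs, against 11.47, 11.58, 11.59 and 11.51 in untreated lungs (-1.10 ± 0.07, adjusted p = 4.8e-09). Ndufa10, a supernumerary subunit of the membrane arm, had 10.29, 10.53 and 10.36 in inhaled rCNT lungs, against 11.43, 11.49, 11.46 and 11.34 in untreated lungs (-1.01 ± 0.06). These were the only members of the 92 that differed by more than 2-fold at quantile scaling, and they fell under each of the other 3 scalings of the scanner values (-0.97 to -1.45) and within each of the 2 inhalation slides (-0.96 to -1.08). Relative to PBS lungs, inhaled rCNT lungs were at -0.56 in Ndufs8 and -0.63 in Ndufa10. Of the 7 core subunits 3 fell (42.9%) and 1 rose (14.3%) against untreated lungs. Against PBS lungs 6 were lower (85.7%) and none higher, while 27.7% of all features were lower and 27.5% higher.

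Several small subunits of complex I rose at quantile scaling. Ndufa5 had 13.79, 13.91 and 13.91 in inhaled rCNT lungs, against 13.36, 13.45, 13.31 and 13.38 in untreated lungs (0.51 ± 0.08), and Ndufa2 rose by 0.44 ± 0.06. With median centring Ndufa5 was at 0.06 (adjusted p = 0.708) and Ndufa2 at -0.07 (adjusted p = 0.595). Neither was higher than in PBS lungs by as much: Ndufa5 was at -0.08 (adjusted p = 0.385) and Ndufa2 at 0.28 ± 0.06 there. The second kept probe of Ndufa5 was at 0.14 against untreated lungs.

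In complex II the iron-sulfur subunit gene Sdhb had 13.60, 13.63 and 13.44 in inhaled rCNT lungs, against 14.24, 14.28, 14.25 and 14.03 in untreated lungs (-0.62 ± 0.07, adjusted p = 1.71e-06), and another of its probes was at -1.08. Sdhc fell by 0.43 ± 0.07, while Sdha and Sdhd were at -0.11 and -0.05 and did not pass at quantile scaling. Both passed as lower with median centring (-0.53 and -0.50) and with the 75th percentile (-0.33 and -0.31). Relative to PBS lungs, inhaled rCNT lungs were lower in Sdhb (-0.51 ± 0.07) and Sdha (-0.43 ± 0.06), higher in Sdhc (0.22 ± 0.07), and at 0.0043 in Sdhd (adjusted p = 0.955). In complex III the genes Uqcrc1 and Uqcrfs1 fell by 0.66 ± 0.08 and 0.44 ± 0.07. Uqcrc1 had 11.21, 11.62 and 11.49 in inhaled rCNT lungs, against 11.96, 12.19, 12.06 and 12.23 in untreated lungs. The small subunit genes Uqcrh, which docks cytochrome c, and Uqcrq rose by 0.43 ± 0.06 and 0.39 ± 0.07 at quantile scaling, and lay at -0.08 and -0.11 with median centring (adjusted p 0.5 and 0.414). Against PBS lungs Uqcrc1 was lower (-0.53 ± 0.08), and Uqcrfs1 (-0.15, adjusted p = 0.0796), Uqcrh (0.10, adjusted p = 0.175) and Uqcrq (0.08, adjusted p = 0.363) did not pass.

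Complex IV split into 6 members that rose and 6 that fell after inhalation (40% of its members each, against 28.4% and 32.5% of all features). Cox7b rose by 0.43 ± 0.07, Cox6c by 0.45 ± 0.07, Cox7a2 by 0.33 ± 0.06 and Ndufa4 by 0.39 ± 0.06 at quantile scaling, and with median centring they lay between -0.12 and -0.03 and none of them passed. Relative to PBS lungs Cox7b was higher by 0.19 ± 0.07 (adjusted p = 0.0366), and Cox6c (0.07, adjusted p = 0.392), Cox7a2 (0.09, adjusted p = 0.201) and Ndufa4 (0.08, adjusted p = 0.297) did not pass. Cox6a1 had 16.14, 16.29 and 16.25 in inhaled rCNT lungs, against 16.77, 16.55, 16.62 and 16.59 in untreated lungs (-0.41 ± 0.07), and it lay -0.22 ± 0.07 below PBS lungs. Ndufa4l2, Cox7a2l and Cox4i2 fell here as well. Ndufa4l2 had 11.00, 11.48 and 11.45 in inhaled rCNT lungs, against 11.72, 11.96, 11.93 and 11.80 in untreated lungs (-0.52 ± 0.09). Cox7a2l had 14.67, 14.74 and 14.69 in inhaled rCNT lungs, against 15.04, 15.22, 15.08 and 15.25 in untreated lungs (-0.46 ± 0.09). Cox4i2 had 10.68, 10.56 and 10.78 in inhaled rCNT lungs, against 10.84, 11.00, 11.04 and 10.93 in untreated lungs (-0.28 ± 0.08). No exposed sample overlapped an untreated sample in these 3 genes, although within a single slide Cox4i2 did not pass (-0.30 and -0.25). Such separation was not counted over all features, of which 60.8% passed the test. Relative to PBS lungs Cox4i2 was higher in inhaled rCNT lungs (0.32 ± 0.08), Cox7a2l lower (-0.47 ± 0.09) and Ndufa4l2 at -0.15 (adjusted p = 0.19). Cox4i1 was at -0.14 with overlapping groups, and its call ended when any of 7 samples was left out (adjusted p up to 0.133) and within each slide.

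In complex V 4 of 17 members rose (23.5%) and 6 fell (35.3%), against 28.4% and 32.5% of all features. Atp5l, the g subunit at the dimer interface, had 14.64, 14.90 and 14.87 in inhaled rCNT lungs, against 14.07, 13.85, 14.06 and 14.09 in untreated lungs (0.79 ± 0.08, adjusted p = 6.16e-07). All exposed samples lay above all untreated samples, and its 4 other kept probes were at 0.62 to 0.68. With median centring it was at 0.29 (adjusted p = 0.0597), and against PBS lungs at 0.13 ± 0.08 (adjusted p = 0.181), since PBS lungs lay 0.66 ± 0.07 above untreated lungs. In the catalytic head Atp5a1 fell by 0.46 ± 0.08, Atp5b by 0.37 ± 0.08 and Atp5c1 by 0.40 ± 0.06, and Atp5o in the stalk fell by 0.48 ± 0.06. The 3 head genes were lower than in PBS lungs too, at -0.37, -0.34 and -0.18. Of the 12 assembly factors 1 rose and 8 fell, with Sdhaf2 at -0.69 ± 0.06: it had 10.16 in each of the 3 inhaled rCNT samples, against 10.87, 10.79, 10.85 and 10.87 in untreated samples. It lay -0.24 ± 0.06 below PBS lungs. The rise was that of Ndufaf7 (0.21), which was at -0.01 within slide 3. The call for Ndufaf8 (-0.21) ended without inhaled rCNT replicate 2 or untreated replicate 1, and another probe of Ndufaf4, which did not pass, was at -0.43 where the brightest was at 0.17.

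The third comparison asked whether the members' changes differed between the routes. No sample is shared between them. Of the 92 members 18 rose after aspiration and fell after inhalation at quantile scaling, 11 rose after both, 5 fell after both, and none fell after aspiration and rose after inhalation. The 18 are 41.9% of the 43 that rose after aspiration, while 43.5% of all 92 members fell after inhalation. They are 45.0% of the 40 that fell after inhalation, while 46.7% of all 92 members rose after aspiration. These joint patterns were not counted over all features. The difference of effects itself (aspiration minus inhalation) was positive past the threshold for 45 members and negative for 9, with a median of 0.22, while 28.4% of all features were positive and 28.5% negative (57.0% in either direction). With median centring 76 members were positive and none negative. This difference also holds any difference between PBS and untreated lungs, which 22 members had as higher and 30 as lower in PBS lungs (26.3% of all features were higher and 33.1% lower, 59.4% in either direction). Inhaled rCNT lungs against PBS lungs gave 18 members that were higher and 29 that were lower (27.5% and 27.7% of all features, 55.2% in either direction), with a median of -0.0068.

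**Figure D5:**
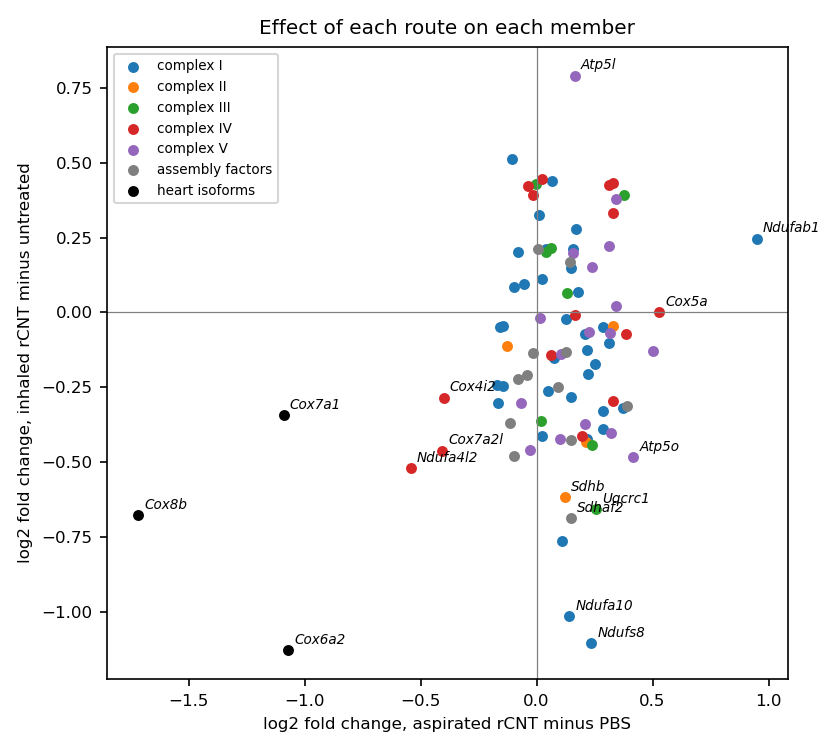
Log2 fold change of each member for inhaled rCNT minus untreated (vertical axis) against aspirated rCNT minus PBS (horizontal axis), coloured by complex or role. Each point is 1 member, and the named ones include the members with the largest effects. Points to the lower right of the origin include the 18 members that rose after aspiration and fell after inhalation at quantile scaling, and with median centring no member rose after inhalation. This pattern was not counted over all features.

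The largest positive differences were those of Ndufs8 (1.34 ± 0.10), Ndufa10 (1.16 ± 0.08), Uqcrc1 (0.91 ± 0.11) and Atp5o (0.90 ± 0.09). For Ndufs8 the group means were 11.24 ± 0.063 in aspirated rCNT, 11.00 ± 0.028 in PBS, 10.44 ± 0.16 in inhaled rCNT and 11.54 ± 0.057 in untreated lungs (SD, n = 3 for inhaled rCNT and 4 for the others), so that PBS lungs lay below untreated lungs (-0.54 ± 0.07) and inhaled rCNT lungs below both. For Atp5o the means were 13.03 ± 0.053 in aspirated rCNT, 12.62 ± 0.064 in PBS, 12.77 ± 0.11 in inhaled rCNT and 13.24 ± 0.085 in untreated lungs. Inhaled rCNT lungs did not differ past the threshold from PBS lungs in Atp5o (0.14 ± 0.06, adjusted p = 0.0703), and PBS lungs lay 0.63 below untreated lungs. The rise of Ndufa10 after aspiration (0.14, adjusted p = 0.0447) ended when any of 8 samples was left out, and its fall after inhalation did not end with any sample left out.

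Among the 92, the negative differences were headed by Atp5l (-0.62 ± 0.11), Ndufa5 (-0.62 ± 0.10), Cox6b2 (-0.46) and Uqcrh (-0.43 ± 0.08), each of which rose after inhalation and did not pass after aspiration. With median centring the difference of Atp5l was 0.02 and that of Uqcrh 0.21, and neither passed. Among the members that rose after both routes, Ndufab1 had 8.78, 9.12 and 8.97 in inhaled rCNT lungs, against 8.85, 8.69, 8.79 and 8.60 in untreated lungs. These groups overlapped, the rise was 0.25 ± 0.09, and it ended without inhaled rCNT replicate 2 or 3 or untreated replicate 2 or 4 (adjusted p 0.057 to 0.116) and within slide 2 (0.07). Its difference between routes was 0.70 ± 0.12 (adjusted p = 9.89e-05). The 11 genes that rose after both also held Cox7a2, Cox7b, Cox7c and Uqcrq, whose differences between routes lay between -0.11 and -0.01 and did not pass at quantile scaling. With median centring those of Cox7a2 (0.53), Uqcrq (0.62) and Cox7b (0.46) were positive and passed, as did those of Cox7a2 (0.31) and Uqcrq (0.39) with the 75th percentile. Other kept probes of Cox7c were at 0.13 and -0.09 after inhalation, where the brightest was at 0.43. After aspiration they were at 0.28 and 0.27, beside 0.31 for the brightest. The 5 that fell after both were Cox4i2, Cox7a2l, Ndufa4l2, Ndufb11 and Ndufv1, with differences of -0.12 to 0.14 that did not pass at quantile scaling. The differences of Cox7a2l and Ndufv1 passed with median centring (0.75 and 0.73) and with the 75th percentile (0.53 and 0.50).

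Genes that work with the complexes but lie outside the symbol rule were counted beside the members. Over all features 20.6% rose and 26.5% fell after aspiration, and 28.4% rose and 32.5% fell after inhalation. Of 77 mitochondrial ribosomal protein genes, which translate the mitochondrial subunits, 43 rose and 3 fell after aspiration (median 0.19), and 6 rose and 41 fell after inhalation (median -0.21). Of 96 cytosolic ribosomal protein genes 20 rose and 7 fell after aspiration, and 11 rose and 60 fell after inhalation. Of 16 citrate cycle genes 4 rose and 2 fell after aspiration, and none rose and 10 fell after inhalation, with the succinyl-CoA ligase genes Suclg1 and Suclg2 at -1.07 and -0.97. Of 20 complex IV assembly factors 7 rose and 2 fell after aspiration, and 5 rose and 7 fell after inhalation. Sco2, a copper carrier for complex IV, was at -0.39 ± 0.11 after aspiration and 1.14 ± 0.12 after inhalation. Of 9 complex I assembly factors outside the rule 1 rose and 1 fell after aspiration, and 1 rose and 6 fell after inhalation.

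Among 10 electron and adenylate carriers 3 rose and 1 fell after aspiration, and 1 rose and 5 fell after inhalation. Cycs, cytochrome c itself, had 13.28, 13.41, 13.32 and 13.60 in aspirated rCNT lungs, against 12.71, 12.66, 12.73 and 12.75 in PBS lungs (0.69 ± 0.07), and was at -0.01 after inhalation (adjusted p = 0.895). Slc25a5, the widespread ADP and ATP exchanger, rose by 0.49 ± 0.06 after aspiration and was at -0.95 ± 0.07 after inhalation, whereas its heart and muscle counterpart Slc25a4 fell after both (-0.34 and -0.50). Of 18 regulators of mitochondrial biogenesis 3 rose (16.7%) and 4 fell (22.2%) after aspiration, against 20.6% and 26.5% of all features. After inhalation 5 rose (27.8%) and 4 fell (22.2%), against 28.4% and 32.5% of all features. Nrf1, the gene of the factor whose motif was searched, was at -0.26 after aspiration and 0.06 after inhalation (adjusted p = 0.403), and Gabpa was at -0.30 and -0.34. The coactivator gene Ppargc1a was at -0.09 (adjusted p = 0.287) and 0.36, and its relative Ppargc1b at 0.41 and -0.03 (adjusted p = 0.761). Of 9 macrophage markers 7 rose and 2 fell after aspiration, and 4 rose and 3 fell after inhalation. Of 8 markers of ciliated cells 5 rose and 1 fell after aspiration, and all 8 rose after inhalation. Of 10 markers of type 2 cells 1 rose and 4 fell after aspiration, and 1 rose and 5 fell after inhalation. Of 9 club cell markers 1 rose and 8 fell after aspiration, and 1 rose and 4 fell after inhalation. Of 10 B cell markers none passed after aspiration, and 9 fell after inhalation. The part of the cell types in the members' changes was not tested.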

How the data were processed

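RNA of 15 lung samples was measured on 14 2-colour arrays on 3 slides. Per the file headers, the deposited intensity values were extracted with Agilent Feature Extraction 11.0.1.1 from a design that refers to the mouse build mm9, and the submitters' processing notes name Feature Extraction and limma. No spot was saturated, 106 to 154 spots per sample carried an outlier flag, and 54.6% to 64.7% of spots were well above background. For arrays, their number limits the precision. The processed intensity, which the authors' software had corrected for background and dye per the file headers, and the deposited series table were used as alternatives. That table was taken as log2 values by the authors: against the own channel's log2 intensity its columns gave correlations of 0.998 to 1.00, their medians were 6.58 to 6.59, and the base of its logarithm and its centring stay unknown.

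The median spot intensity of the sample's own channel went through normexp background correction (offset 50), was converted to log2 and was scaled by quantiles across the 15 channels. Control spots and outlier spots were left out. Probes were kept where 3 or more samples of some group were well above background (34271 of 55681), named through their RefSeq accession, and the brightest probe stood for a gene. Group (4 levels) and dye entered 1 linear model over all 15 samples in limma 3.58.1 and R 4.3.3, with Benjamini-Hochberg adjustment over all 25251 features, a threshold of 0.05 and two-sided tests. Every adjusted p is from this fit unless a setting is named. The model was tested on simulated data.

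The members, the lists and the tests were chosen with earlier results of these data known. Values in full were given for 16 members fixed by name, for the 2 highest and 2 lowest called changes of each complex and of the assembly factors after each route, and for the 4 most positive and 4 most negative differences between routes. Atp5c1, Atp5g1, Atp5g2, Atp5g3, Cox7c, Cox6b2, Ndufb11 and Ndufaf4, and the genes named from other lists, were picked after their values were seen. Fits under other background, scaling, filter, probe, dye, slide, variance, sample and replicate settings served as alternatives.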

Additional observations from a re-analysis of the deposited data

Results flagged for a closer look

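In 7 of 129 groups of 4 values examined, over 43 members, 1 sample lay far from the other 3 by Dixon's criterion, which flags about 1 in 20 groups by chance. Aspirated rCNT replicate 2 was high for Cox7a2l (14.87), and aspirated rCNT replicate 3 was low for Sdhc (11.91) and high for Ndufa5 (14.02). PBS replicate 4 was low for Ndufa2 (14.21). Untreated replicate 2 was low for Ndufa2 (14.07) and Atp5l (13.85), and untreated replicate 4 was low for Sdhb (14.03).

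The effects of the 2 routes differed past the threshold, in limma's test of the difference itself, for 28 of 43 members given in full. The difference, aspiration effect minus inhalation effect on the log2 scale, was positive for Ndufs8 (1.34), Ndufa10 (1.16), Uqcrc1 (0.91), Atp5o (0.90), Sdhaf2 (0.84), Sdhb (0.74), Ndufaf3 (0.70), Ndufab1 (0.70), Ndufa11 (0.69), Uqcrfs1 (0.68), Sdhc (0.65), Atp5pb (0.63), Cox6a1 (0.61), Atp5b (0.58), Cox5a (0.53), Cox5b (0.46), Atp5a1 (0.43), Sdhaf3 (0.38), Sdhd (0.38) and Cox4i1 (0.20). It was negative for Cox8b (-1.04), Cox7a1 (-0.75), Atp5l (-0.62), Ndufa5 (-0.62), Uqcrh (-0.43), Cox6c (-0.42), Ndufa4 (-0.41) and Ndufa2 (-0.37). Each of these differences also holds the difference between PBS and untreated lungs.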

How the results depend on the processing

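Scaling moved the results that involve the inhalation study, and also the count that fell after aspiration, which was 7 with quantile scaling. With median centring 3 members were lower after aspiration, 0 were higher and 73 lower after inhalation (median -0.53), 76 differences between routes passed with 0 negative (median 0.75), 33 members differed between PBS and untreated lungs with 17 lower, and 79 differed between inhaled rCNT and PBS lungs, 0 higher and 79 lower (median -0.50). With the 75th percentile the counts were 3 lower after aspiration, 4 higher and 65 lower after inhalation (median -0.33), 1 negative difference (median 0.53), and 5 higher and 61 lower in PBS than in untreated lungs (median -0.28). Loess with Aquantile gave 3 lower after aspiration, a median of -0.0036 after inhalation, and 0.0154 in place of -0.0068 for inhaled rCNT against PBS. The authors' deposited table gave 4 lower after aspiration. A fit on the groups of the contrast alone left 15 higher after inhalation, and slide 3 alone left 14. The causes were not tested.

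In settings other than the removal of 1 sample, 79 of 1978 effects of single members changed sign, 48 of them past the threshold in neither fit. The 31 past it in at least 1 fit were these. With median centring the inhalation effect was -0.0285 for Ndufa4, -0.12 for Cox7a2, -0.0701 for Ndufa2, -0.11 for Uqcrq, -0.0836 for Uqcrh, -0.0299 for Cox7b, -0.0578 for Cox6c, -0.31 for Atp5j2, -0.0604 for Atp5md and -0.15 for Ndufaf7. The difference between routes was then 0.10 for Ndufa4, 0.53 for Cox7a2, 0.50 for Sdha, 0.46 for Ndufs7, 0.26 for Ndufa2, 0.62 for Uqcrq, 0.21 for Uqcrh, 0.46 for Cox7b, 0.24 for Cox6c, 0.60 for Atp5j2, 0.48 for Atp5md and 0.0217 for Atp5l. With the 75th percentile the inhalation effect of Atp5j2 was -0.11, and the difference was 0.31 for Cox7a2, 0.27 for Sdha, 0.24 for Ndufs7, 0.0324 for Ndufa2, 0.39 for Uqcrq, 0.0178 for Cox6c and 0.38 for Atp5j2. Ndufaf7 was at -0.0117 within slide 3.

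With 1 sample left out in turn, 38 to 51 members passed after aspiration (32 to 43 higher, 4 to 9 lower, median 0.12 to 0.16), 56 to 65 after inhalation (20 to 25 higher, 35 to 42 lower, median -0.12 to -0.10), and 49 to 56 differed between routes (41 to 47 positive, 8 to 10 negative, median 0.20 to 0.22). PBS and untreated lungs differed in 46 to 53 (17 to 21 higher, 26 to 33 lower, median -0.09 to -0.05), and inhaled rCNT and PBS lungs in 37 to 48 (13 to 20 higher, 24 to 29 lower, median -0.0291 to 0.0034, positive without PBS replicate 2 or inhaled rCNT replicate 2). Of 1935 such values of single members 45 changed sign, all past the threshold in neither fit, and of 1395 that had passed 79 no longer did. Same-numbered samples correlated at -0.43 to 0.08 in their deviations from group means. Dye was not removed from these deviations, and same-numbered aspirated rCNT and PBS samples carry opposite dyes. These values therefore cannot show whether same-numbered samples are paired. With the replicate block 41 members passed after aspiration (37 higher, 4 lower), 56 after inhalation and 53 between routes. A random block for the array shared by 2 samples could not be fitted, and a slide block gives no value between PBS and untreated or inhaled rCNT and PBS lungs. With slide as a block in limma, the inhalation calls of Cox4i1 (adjusted p = 0.0749), Ndufab1 (0.0501) and Ndufaf8 (0.0541) ended. The calls for the difference between routes of Cox4i1 (0.0506) and Sdhaf3 (0.0578) ended too. The number of arrays limits what small effects show.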
